A study of Homo sapiens with 8 samples.

Results

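Peaks in simple and low-complexity repeats were taken from 6 ChIP-seq peak lists of dnTCF1EWT and dnTCF1Emut in DLD-1 colon cancer cells. A peak was included if the detailed annotation of its center, given by HOMER for human genome build hg19, named a simple repeat or a low-complexity region. Such peaks, called repeat peaks here, numbered 1424 of 23433 peaks in all. They were divided by the GC content of the peak into 986 AT-rich repeat peaks, with a GC content below 15%, and 438 other repeat peaks. All remaining peaks of a list are called peaks with another annotation.

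Simple repeats, or microsatellites, are tandem runs of a short unit, and low-complexity regions are stretches of skewed base composition. Both are scattered through introns and intergenic DNA, their lengths vary between people and between cell lines, and many runs of one unit look alike to a short read. Runs of alternating T and A melt easily and are hard to copy and to sequence. TCF1 is a transcription factor of the Wnt pathway that binds the Wnt response element (WRE) through its HMG box, a domain that contacts the minor groove of DNA. The E isoform has in addition a C-clamp, a zinc-binding domain that binds the GC-rich Helper site. For each peak, matches to 3 motifs were counted by the authors. The WRE was CTTTG followed by A or T, again A or T, and G or C. The short Helper site was A or G followed by CCG, and the full Helper site had CC in addition at its end.

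dnTCF1E is a dominant negative form of TCF1E, and the study asked how its C-clamp contributes to binding. Both proteins carry an N-terminal FLAG tag and were expressed from a doxycycline-inducible system, dnTCF1EWT in 1 cell line and dnTCF1Emut, whose C-clamp does not bind DNA, in another. Cells of each line were left without doxycycline (0 h) or treated with 1 ug/mL doxycycline for 2 or 9 h, and chromatin was precipitated with anti-FLAG beads in all groups, so the 0 h lists come from cells in which the tagged protein was not induced. The authors pooled the duplicates of each condition before peaks were called, which gave 1 list per condition. There is therefore no replicate error. The intervals below are 95% intervals of counting error only (Wilson for a share, Newcombe for a difference between shares), and the protein, the cell line and its libraries cannot be told apart. The sequencing depth is unknown from the lists, so numbers of peaks and peak scores also depend on depth. The lists held between 354 and 12996 peaks, and the lowest peak score was between 50.01 and 50.21 in all 6.

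The repeat units that carry the results were few. RepeatMasker, whose names HOMER copies, writes a unit in parentheses followed by n, and a unit read from another start or from the other strand is the same repeat. The unit TA, written (TA)n, was by far the most common with 823 peaks, 813 of them in the dnTCF1Emut lists. The unit of 5 bases TTATA, which on the other strand reads TATAA, followed with 191 peaks, all in the dnTCF1Emut lists. CA, which on the other strand reads TG and is one of the most common microsatellites of the human genome, had 65 peaks. AT_rich, a low-complexity name and not a unit, had 30, and AAATG, on the other strand CATTT, had 20. A unit or name made of A and T alone was found at 557 of 578 repeat peaks of the dnTCF1Emut 0 h list, at 375 of 436 at 2 h and at 122 of 137 at 9 h. In the dnTCF1EWT lists it was found at 9 of 72, 17 of 74 and 25 of 127 repeat peaks. The bases of the peaks themselves were not read here, as no hg19 genome was used.

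The dnTCF1Emut list of untreated cells was made mostly of repeat peaks, while the dnTCF1EWT lists held few. Repeat peaks were 578 of 708 peaks (81.6%, interval 78.6 to 84.3%) of the dnTCF1Emut list at 0 h, 436 of 1883 (23.2%, 21.3 to 25.1%) at 2 h and 137 of 354 (38.7%, 33.8 to 43.9%) at 9 h. In the dnTCF1EWT lists they were 72 of 1907 (3.78%, 3.01 to 4.73%) at 0 h, 74 of 5585 (1.32%, 1.06 to 1.66%) at 2 h and 127 of 12996 (0.977%, 0.822 to 1.16%) at 9 h. The share was higher in the dnTCF1Emut list at each time point, by 77.9 percentage points (74.7 to 80.6) at 0 h, 21.8 (19.95 to 23.8) at 2 h and 37.7 (32.8 to 42.9) at 9 h. Within each cell line the share was highest in the list without doxycycline. For dnTCF1Emut it was 58.5 points (54.9 to 61.7) higher at 0 h than at 2 h and 42.9 points (37.0 to 48.5) higher than at 9 h, and for dnTCF1EWT it was 2.45 points (1.61 to 3.44) higher at 0 h than at 2 h and 2.80 points (2.01 to 3.76) higher than at 9 h. Among peaks with a score above 67 the dnTCF1EWT 0 h share was 10.1%, and 1.81% at 9 h, and among the 1000 highest-scoring peaks the shares at 2 and 9 h were 0.5% and 2.4%, so the dnTCF1EWT values depend on the score threshold.

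**Figure D1:**
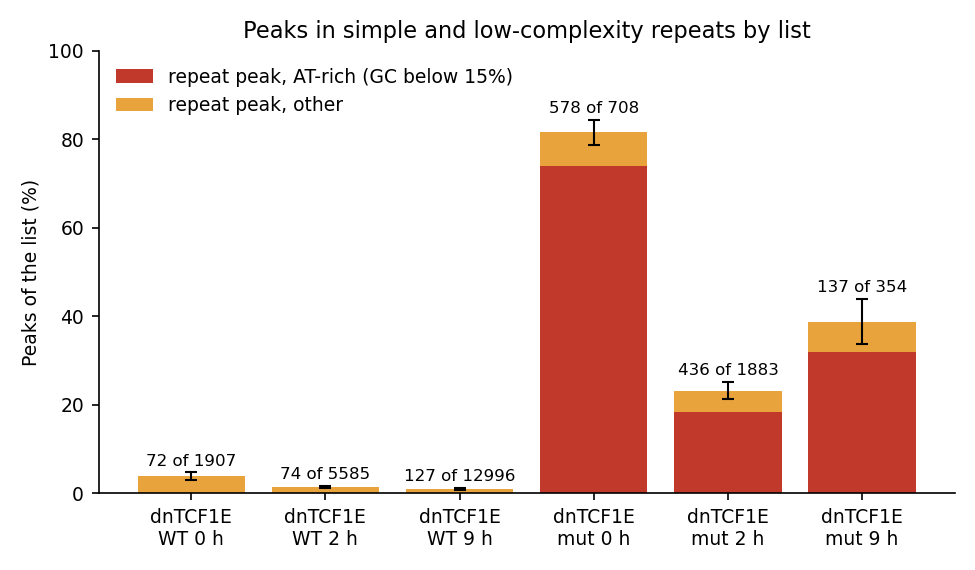
Share of each peak list (%, y axis) whose center lies in a simple or low-complexity repeat, for the 6 lists (x axis), with AT-rich repeat peaks (red) stacked below other repeat peaks (orange), Wilson 95% intervals of the total as bars, and counts above. The red part makes up most of each dnTCF1Emut bar and reaches 73.9% of the 0 h list, while no dnTCF1EWT bar reaches 5%.

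The difference between the cell lines lay mainly in AT-rich repeats. AT-rich peaks were 523 of the 578 repeat peaks (90.5%, 87.8 to 92.6%) of the dnTCF1Emut 0 h list, 347 of 436 (79.6%, 75.6 to 83.1%) at 2 h and 113 of 137 (82.5%, 75.3 to 87.9%) at 9 h. Of dnTCF1EWT repeat peaks, 0 of 72 were AT-rich at 0 h, which allows a share of up to 4.17%, 3 of 74 (4.05%, 1.39 to 11.3%) at 2 h and 0 of 127 at 9 h, which allows up to 2.36%. Other repeat peaks were also a larger share of the dnTCF1Emut lists, but by less. They were 7.77% of the dnTCF1Emut and 3.78% of the dnTCF1EWT list at 0 h, a difference of 3.99 points (2.00 to 6.33), 4.73% and 1.27% at 2 h, a difference of 3.46 points (2.53 to 4.54), and 6.78% and 0.977% at 9 h, a difference of 5.80 points (3.61 to 8.92). Between the dnTCF1Emut time points, the share of other repeat peaks differed by 0.989 points (-2.58 to 4.09) between 0 and 9 h and by 2.05 points (-0.370 to 5.28) between 9 and 2 h, intervals that include 0.

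GC content differed widely between the cell lines. The median repeat peak had a GC content of 5.81% in the dnTCF1Emut list at 0 h, 5.80% at 2 h and 5.94% at 9 h, against 49.7%, 42.3% and 49.4% in the dnTCF1EWT lists. Repeat peaks with a GC content of 30% or more numbered 229 of 273 in the dnTCF1EWT lists and 57 of 1151 in the dnTCF1Emut lists. Peaks without a single G or C numbered 8, 9 and 4 in the dnTCF1Emut lists at 0, 2 and 9 h, and none was found in the dnTCF1EWT lists. The limit of 15% does not lie in a gap of the dnTCF1Emut values, where 132 repeat peaks had a GC content from 10% to below 15% and 47 from 15% to below 20%. Just inside it, 32 dnTCF1Emut repeat peaks of 13% to below 15% had a median score of 72.6, and just outside it, 23 of 15% to below 17% had a median score of 75.5.

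**Figure D2:**
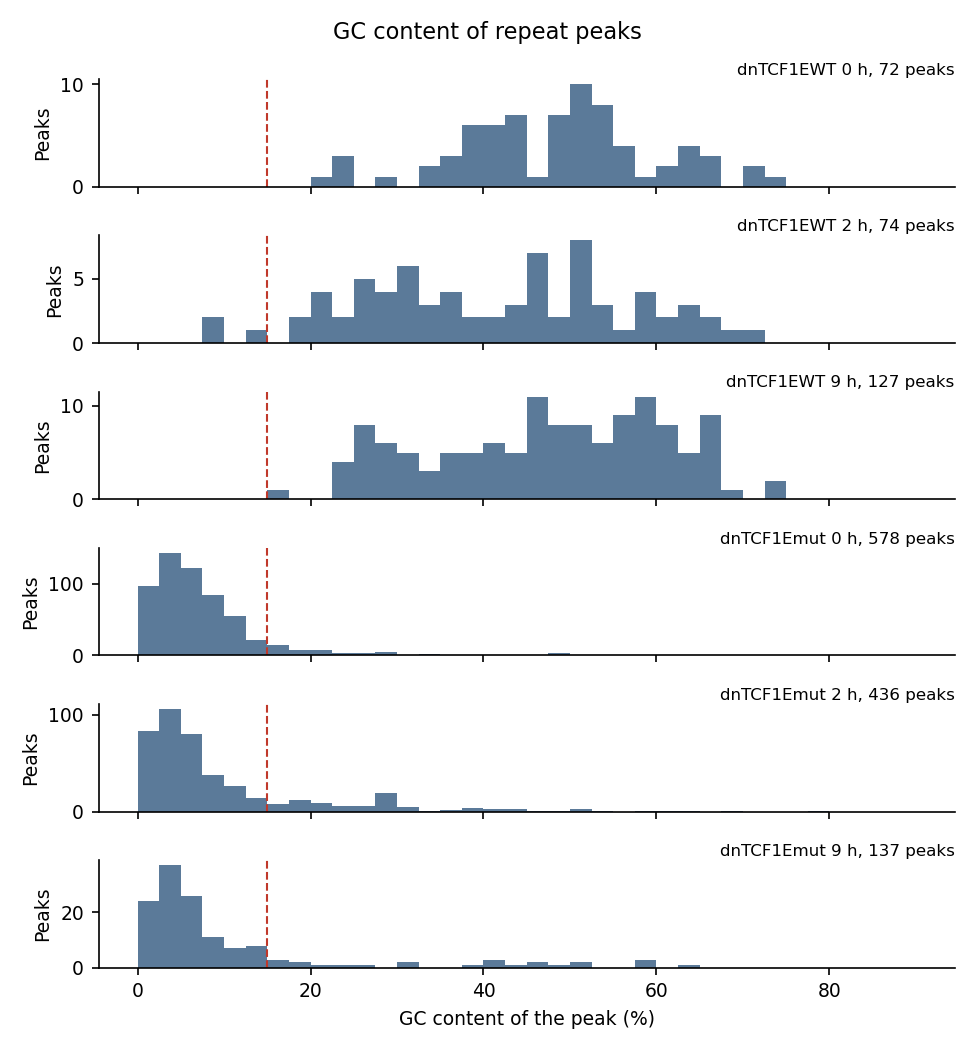
Number of repeat peaks (y axes, scaled separately) by the GC content of the peak (%, x axis, steps of 2.5%), 1 panel per list, with the dashed line at 15%. Most dnTCF1Emut repeat peaks lie left of the line, with medians of 5.81%, 5.80% and 5.94%, and most dnTCF1EWT repeat peaks lie far to the right of it.

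The unit TA accounted for most AT-rich repeat peaks in every dnTCF1Emut list, with 395 of 523 at 0 h, 263 of 347 at 2 h and 90 of 113 at 9 h. TTATA accounted for 99, 65 and 21 of them. Peaks at the unit TA were also found in the dnTCF1EWT lists, 6 at 2 h with a median GC content of 17.2% and 4 at 9 h with a median of 24.7%. Of the 6 at 2 h, 3 were AT-rich. Peaks at TA in the dnTCF1Emut lists had medians of 5.56%, 4.86% and 4.71%. The unit named at the center was thus the same, but these few dnTCF1EWT peaks mostly held more G and C. Where in the peak the G and C lie is unknown. Within the dnTCF1Emut 0 h list, peaks at TA had a median score of 85.6, peaks at TTATA 73.7 and peaks at AT_rich 73.8. CA was the most common unit in each dnTCF1EWT list, at 14 of 72, 12 of 74 and 20 of 127 repeat peaks, whereas in the dnTCF1Emut lists it was found at 5, 7 and 7. The dnTCF1EWT repeat peaks were spread over many units, 26, 31 and 44 in the 3 lists, against 16, 24 and 12 in the larger sets of dnTCF1Emut repeat peaks. The unit GAAA (TTTC on the other strand) was found at 16 dnTCF1EWT and 0 dnTCF1Emut peaks, whereas GA (TC on the other strand) was found at 8 and 3, and the low-complexity name GA-rich at 11 and 3.

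AT-rich repeat peaks were not weak peaks of their lists. In the dnTCF1Emut 0 h list they had a median score of 83.5 (quartiles 63.5 and 131), against 64.1 (54.7 and 77.4) for the other repeat peaks and 68.6 (55.6 and 116) for peaks with another annotation. At 2 h the AT-rich median was 79.5 (61.7 and 110), that of other repeat peaks 66.7 (57.9 and 82.5) and that of peaks with another annotation 83.4 (61.8 and 128). At 9 h the medians were 68.9, 63.1 and 64.1. AT-rich repeat peaks thus had the highest median of the 3 classes at 0 and 9 h, but not at 2 h. The quartile ranges of the classes overlapped in all 3 lists. By the same GC limit, 64 of the 130 peaks with another annotation at 0 h were AT-rich too, with a median score of 99.2. This lies above the 83.5 of AT-rich repeat peaks, so the high score at 0 h was not particular to repeats. At 2 and 9 h, 46 and 11 such peaks had medians of 77.2 and 58.2, below those of AT-rich repeat peaks. In the dnTCF1EWT lists the other repeat peaks scored higher than peaks with another annotation at 0 h (median 61.4 against 55.5) and at 9 h (61.9 against 56.8), and close to them at 2 h (60.8 against 59.0). The 3 AT-rich repeat peaks of the dnTCF1EWT 2 h list scored 52.85, 58.10 and 60.48, with FLJ37505, LOC100287015 and CXorf64 as nearest genes.

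**Figure D3:**
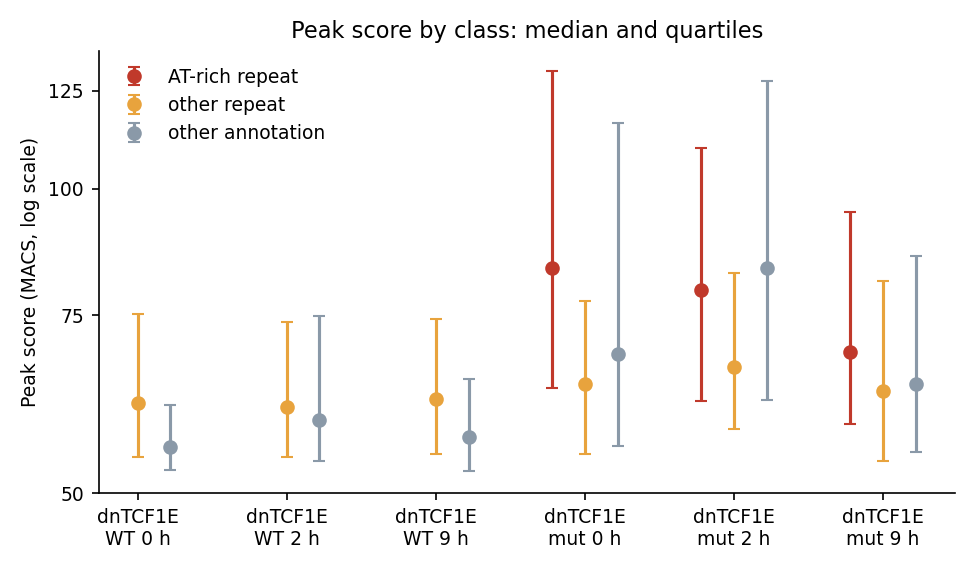
MACS peak score (y axis, log scale) of AT-rich repeat peaks (red), other repeat peaks (orange) and peaks with another annotation (gray) in the 6 lists (x axis), where points are medians and bars run between the quartiles over peaks. The red median is highest at dnTCF1Emut 0 h (83.5) and lies below the gray one at 2 h (79.5 and 83.4). The 3 AT-rich repeat peaks of dnTCF1EWT 2 h are not drawn.

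The head of the dnTCF1Emut lists changed with doxycycline. At 0 h, 47 of the 50 highest-scoring peaks were repeat peaks, all AT-rich, as were 88 of the top 100, and 425 of the top 500 were repeat peaks, 396 of them AT-rich. At 2 h repeat peaks were 6 of the top 50 (12%, 5.62 to 23.8%), 16 of the top 100 (16%, 10.1 to 24.4%) and 81 of the top 500 (16.2%, 13.2 to 19.7%). Each share is below the 23.2% of the whole list, but only the interval of the top 500 lies below it. At 9 h they were 20 of the top 50 and 40 of the top 100 (40.0%, 30.9 to 49.8%), close to their share of the whole list. In the dnTCF1EWT 0 h list 12 of the top 50 peaks (24.0%, 14.3 to 37.4%) were repeat peaks, against 3.78% of the list, and none of the 12 was AT-rich.

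Within a list, the higher-scoring AT-rich repeat peaks were also the longer ones. The median AT-rich repeat peak of the dnTCF1Emut lists was 395 bp long at 0 h, 364 bp at 2 h and 317 bp at 9 h, the median other repeat peak 301, 409 and 282.5 bp, and peaks with another annotation were 390, 465 and 427 bp long. The correlation of log score and log length over AT-rich repeat peaks was 0.67 over 523 peaks at 0 h, 0.58 over 347 at 2 h and 0.53 over 113 at 9 h, while that of log score and GC content was -0.10, -0.01 and -0.09. Over other repeat peaks of the same lists the correlation of log score and log length was 0.37 over 55 peaks, 0.30 over 89 and 0.23 over 24. Peaks of 1 list share their libraries, so these values are descriptions. Repeat peaks of the dnTCF1EWT lists were shorter, with medians of 231, 185 and 178 bp. Peaks with another annotation in those lists were short as well, with medians of 185, 187 and 171 bp. The longest AT-rich repeat peak, of 2243 bp, was in the dnTCF1Emut 0 h list.

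AT-rich repeat regions recurred between the dnTCF1Emut lists. Of the 523 AT-rich repeat peaks at 0 h, 259 (49.5%, 45.3 to 53.8%) overlapped a 2 h peak by at least 1 base, as did 45.6% of all peaks of that list, and 91 (17.4%, 14.4 to 20.9%) overlapped a 9 h peak, as did 16.7% of all peaks. As AT-rich repeat peaks make up most of the 0 h list, those shares lie close to the shares of the whole list. The contrast was larger from the later lists back to untreated cells. It is in part set by the 0 h list, which held 523 AT-rich repeat peaks but 130 peaks with another annotation. The 2 h list held 1447 of the latter, so few of them could have a partner of their class at 0 h. Searched from 0 h, 38.5% of peaks with another annotation overlapped a 2 h peak and 16.2% a 9 h peak. Of the 347 AT-rich repeat peaks at 2 h, 260 (74.9%, 70.1 to 79.2%) overlapped a 0 h peak, against 17.3% of all 2 h peaks and 3.59% of those with another annotation, a difference from the latter of 71.3 points (66.4 to 75.7). Of the 113 at 9 h, 93 (82.3%, 74.2 to 88.2%) overlapped a 0 h peak, against 32.8% of all 9 h peaks and 9.22% of those with another annotation, a difference of 73.1 points (63.8 to 79.8).

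Between the induced time points the difference was smaller. AT-rich repeat peaks at 9 h overlapped a 2 h peak in 87 of 113 cases (77.0%), against 65.8% of all 9 h peaks, and those at 2 h overlapped a 9 h peak in 85 of 347 cases (24.5%), against 12.4% of all 2 h peaks. The share of other repeat peaks that recurred was below that of AT-rich ones in all 6 pairs of dnTCF1Emut lists, with an interval of the difference above 0 in 5 of them. The exception was 0 h to 9 h, with a difference of 6.49 points (-4.83 to 13.3). From 2 h to 0 h, for example, 14 of 89 (15.7%) other repeat peaks recurred, a difference of 59.2 points (49.0 to 66.7). The 0 h list held 55 other repeat peaks in all, which limits that share.

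**Figure D4:**
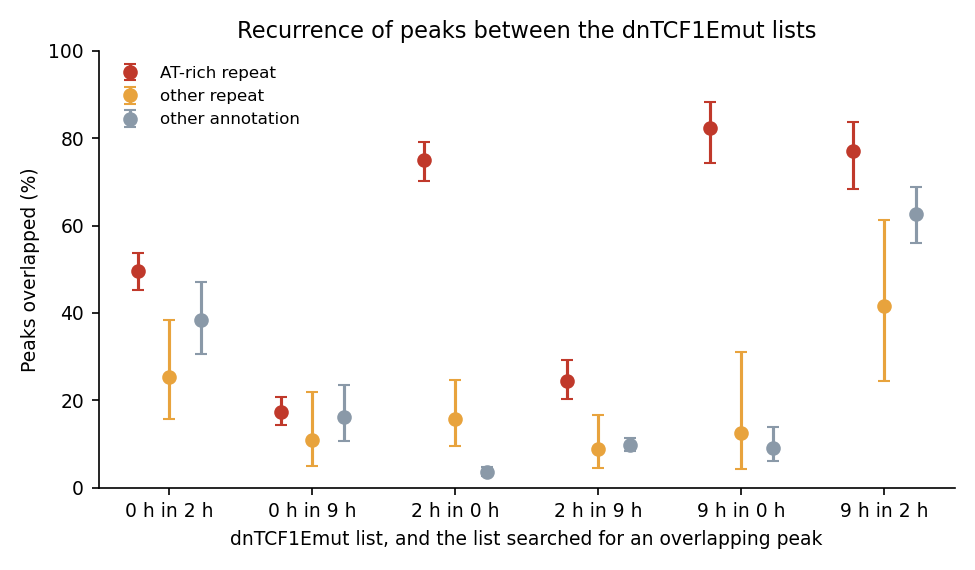
Share of dnTCF1Emut peaks (%, y axis) overlapped by any base by a peak of another dnTCF1Emut list, for AT-rich repeat peaks (red), other repeat peaks (orange) and peaks with another annotation (gray), where the x axis names the list and the list searched, and bars are Wilson 95% intervals. Red stands far above gray where 2 h or 9 h peaks are searched for in the 0 h list (74.9% against 3.59%, and 82.3% against 9.22%). That list holds 523 AT-rich repeat peaks and 130 peaks with another annotation.

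AT-rich repeat peaks with a higher score recurred more often, and most of the higher-scoring groups were also longer. When the AT-rich repeat peaks at 0 h were ordered by score into 4 equal groups, 31 of 131 in the lowest group (scores 50.2 to 63.5) overlapped a 2 h peak, then 52 of 131, 60 of 130 and 116 of 131 in the highest group (131 to 599). For the 9 h list the numbers were 5, 8, 14 and 64. The same order was seen from 2 h back to 0 h, with 50 of 87, 59 of 87, 68 of 86 and 83 of 87. From the lowest to the highest group, median lengths were 279, 335, 427 and 651 bp at 0 h. At 2 h they were 263, 352, 332.5 and 578 bp. A longer peak is more easily overlapped by any base, and score and length were not separated here. At the regions shared by the 0 h and 2 h lists, the AT-rich repeat score was lower at 2 h than at 0 h at 188 of 259 regions. The median ratio of the 2 h to the 0 h score was 0.760, and the mean log2 ratio was -0.38 ± 0.73 (SD over 259 regions). From 0 to 9 h the median ratio was 0.422 over 91 regions, with a higher score at 9 h at 2 of them. For the 21 regions with another annotation it was 0.876, with a higher score at 9 h at 8 of them. From 2 to 9 h the AT-rich repeat ratio was the higher one, 0.532 over 85 regions against 0.378 over 141 with another annotation. The 50 regions with another annotation shared by the 0 h and 2 h lists had a median ratio of 0.803 and a mean log2 ratio of -0.07 ± 1.24 (SD), so their scores scattered more. Depth differs between the lists by an unknown amount, so the level of these ratios has no scale, and they were not tested.

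**Figure D5:**
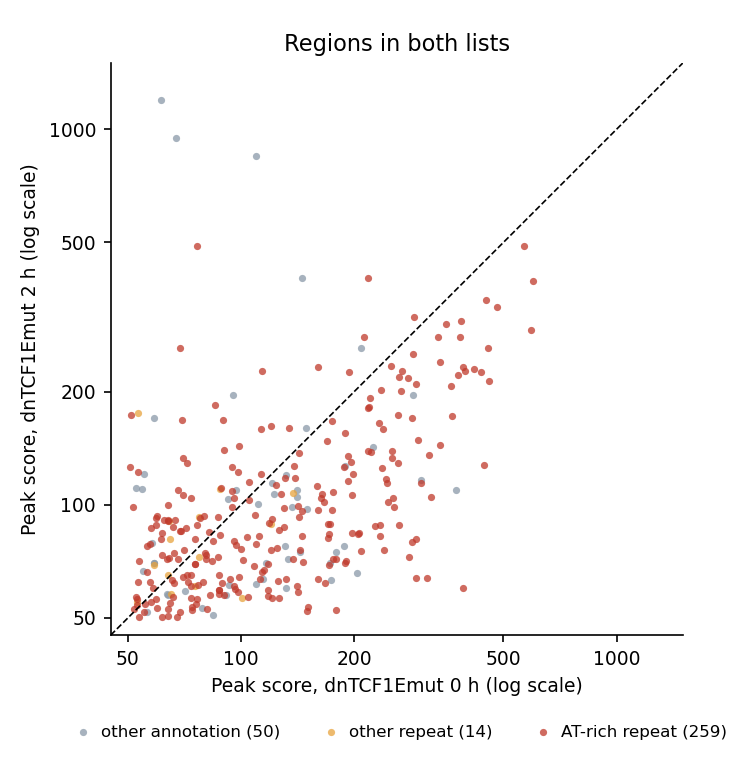
Peak score at 0 h (x axis) and at 2 h (y axis), both log scales, for regions in both dnTCF1Emut lists, as AT-rich repeat peaks (red, 259), other repeat peaks (orange, 14) and peaks with another annotation (gray, 50), with the line of equal scores dashed. Red points lie mostly below the line, 71 of 259 above it, and the 3 highest 2 h scores with a low 0 h score belong to gray points.

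Almost none of the AT-rich repeat peaks of dnTCF1Emut cells was in a dnTCF1EWT list. At 0 h, 0 of 523 overlapped a peak of any of the 3 dnTCF1EWT lists, which allows a share of up to 0.574%, against 2.54% of all peaks of that list. At 2 h it was 0 of 347, which allows up to 0.865%, against 30.6% of all peaks, and at 9 h 1 of 113 (0.885%), against 35% of all peaks. That peak lies at chr12:127965298-127965435, 401 kb from the TSS of FLJ37505, an uncharacterized gene, and scored 66.34 at dnTCF1Emut 9 h and 52.85 at dnTCF1EWT 2 h. Other repeat peaks were shared more often between the cell lines. The counts were 2 of 55 at 0 h, 12 of 89 at 2 h and 8 of 24 at 9 h. The low overlap of AT-rich repeat peaks is in part set by the dnTCF1EWT lists. Those lists held 0, 4 and 0 AT-rich peaks of any annotation at 0, 2 and 9 h. Few partners of similar GC content were therefore available.

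In dnTCF1EWT cells, repeat peaks were found again between lists at about the rate of all peaks or above it. Of 72 repeat peaks at 0 h, 6 (8.33%, 3.88 to 17.01%) overlapped a 2 h peak, against 4.14% of all 0 h peaks, and 14 (19.4%, 11.95 to 30.03%) overlapped a 9 h peak, against 8.34%. From 9 h back to 0 h the count was 14 of 127 (11.0%, 6.68 to 17.7%), against 1.24% of all 9 h peaks. From 2 h to 9 h it was 8 of 71 other repeat peaks (11.3%, 5.82 to 20.7%), against 14.9% of all peaks, and 0 of the 3 AT-rich ones. The intervals from 0 to 9 h and from 9 to 0 h lie above the share of all peaks, and those from 0 to 2 h and from 2 to 9 h include it.

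Merged over lists by any overlap, the 1424 repeat peaks formed 1003 regions. Of these, 699 were in 1 list, 217 in 2, 84 in 3 and 3 in 4 lists. The dnTCF1Emut 0 h list alone held 303, the 0 h and 2 h dnTCF1Emut lists together held 171, and all 3 dnTCF1Emut lists and no other held 80, in 79 of which every peak was AT-rich. Only 14 regions had repeat peaks of both cell lines, and 1 of these held an AT-rich peak. Among 630 regions with an AT-rich peak 261 were in 2 or more lists, and among the other 373 regions 43 were. These 2 sets differ in cell line too. The dnTCF1EWT lists at 0, 2 and 9 h alone held 55, 59 and 105 regions, and few peaks of any annotation recurred between those lists. All peaks were not merged in this way, so no share over all peaks stands beside these counts.

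The highest-scoring AT-rich repeats at 0 h were found again at 2 and 9 h. The top peak of the dnTCF1Emut 0 h list lies at chr18:27091462-27092243, an intergenic run of TA with a GC content of 1.66%, 787 kb from the TSS of MIR302F, a microRNA gene. It scored 598.66 at 0 h, 393.74 at 2 h and 215.78 at 9 h, where it ranked 1, 32 and 10. The second lies at chr2:68678036-68679350, 15.7 kb from the TSS of FBXO48, an F-box gene, and scored 591.32. A further run of TA beside it, at chr2:68676805-68677908, scored 417.21, and the 2 h list held 3 peaks here, with scores of 291.42, 229.94 and 228.48. Neither of these regions had a peak in a dnTCF1EWT list.

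The pattern was not the same at each of the leading regions. At chr16:65162133-65163411, 7.10 kb from the TSS of the cadherin gene CDH11, the score was 217.66 at 0 h, 401.75 at 2 h and 142.99 at 9 h, so it was highest at 2 h. An intron of the uncharacterized gene LOC729852 held a TA run at chr7:7718091-7718482 that scored 434.54, 225.39 and 225.13, and it ranked 8 in the 9 h list. A run of TTATA at chr13:63262222-63262937, with the olfactory receptor pseudogene OR7E156P as its nearest gene at 1049 kb, scored 251.59, 233.84 and 217.76. These 3 regions too had no dnTCF1EWT peak.

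Repeat peaks of the dnTCF1Emut lists lay farther from a TSS than peaks with another annotation, except other repeat peaks at 9 h. Of the 1424 repeat peaks, 469 lay in introns and 955 were intergenic, and a repeat is named only where no exon or promoter annotation takes the peak, so the rule leaves no other place. At dnTCF1Emut 0 h the median distance of AT-rich repeat peaks to the nearest TSS was 77.8 kb, against 24.9 kb for peaks with another annotation, and it was 93.1 kb against 53.1 kb at 2 h and 97.4 kb against 60.6 kb at 9 h. For other repeat peaks it was 93.5 kb, 85.5 kb and 47.4 kb, so the distance at 0 and 2 h was not particular to AT-rich repeats. AT-rich repeat peaks beyond 100 kb were 232 of 523 at 0 h (44.4%), against 17.7% of peaks with another annotation, 47.8% against 33.03% at 2 h and 49.6% against 34.6% at 9 h, and other repeat peaks beyond it were 49.1%, 43.8% and 37.5%. Intergenic peaks were 67.9%, 69.2% and 70.8% of AT-rich repeat peaks at the 3 times, 72.7%, 68.5% and 66.7% of other repeat peaks and 54.6%, 55.5% and 64.1% of peaks with another annotation. The remaining AT-rich repeat peaks, 168, 107 and 33, lay in introns. By chromosome, the 523 peaks at 0 h were most numerous on chromosomes 2 (55), 4 (54) and 7 (37), and the lowest numbers were on chromosomes 22 (1) and Y (2). Chromosomes 2, 4 and 7 held 10.5%, 10.3% and 7.07% of them, against 7.69%, 6.15% and 7.69% of peaks with another annotation. These counts were not scaled for chromosome size. The 523 peaks had 440 different nearest genes, and the most frequent, MIR302F, had 5 peaks, while NR3C2, the mineralocorticoid receptor gene, and BBS5, a Bardet-Biedl syndrome gene, had 4 each.

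Few AT-rich repeat peaks were near a TSS, 2 of 523 within 2 kb at 0 h, 2 of 347 at 2 h and 1 of 113 at 9 h. Other repeat peaks within 2 kb were 2 of 55, 0 of 89 and 0 of 24. Of peaks with another annotation, 10%, 3.32% and 3.23% were that close. As a promoter annotation is named before a repeat, the low counts of repeat peaks are in part fixed by the rule. An AT-rich region near a TSS was in all 3 lists. It lies in intron 1 of HERC6, a gene of a HECT and RCC1 domain protein, at 1302 bp from its TSS at 0 h, and scored 295.22 at 0 h, 149.04 at 2 h and 53.87 at 9 h. The others were a peak 1994 bp from the TSS of the microRNA gene MIR30C2 at 0 h, with a score of 61.17, and a peak 1290 bp from that of CEP97, a centrosomal protein gene, at 2 h, with a score of 61.48. Of 308 intronic AT-rich repeat peaks, the host gene of 296 could be named from RefSeq accessions, and they lay in 174 genes.

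Genes of the Wnt pathway were the nearest genes of repeat peaks about as rarely as of all peaks. For 32 pathway genes and targets, the nearest gene was in the list for 4 of 986 AT-rich repeat peaks (0.406%), 2 of 438 other repeat peaks (0.457%) and 124 of 22009 peaks with another annotation (0.563%), against 0.555% of all peaks. The AT-rich ones were at 513 kb and 215 kb from SOX9, a transcription factor gene of intestinal crypts, and at 303 kb from CTNNB1, the gene of β-catenin. A TA run 513 kb from SOX9 scored 90.17 at dnTCF1Emut 0 h and 57.70 at 2 h. The closest was not AT-rich, a TCC repeat in intron 2 of AXIN2, a negative regulator of the pathway, 7.37 kb from its TSS, with a score of 52.22 in the dnTCF1EWT 9 h list.

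Large genes of common fragile sites, regions that break under replication stress, were also counted. Of 18 such genes, 1 was the nearest gene or the intron's host for 18 of 986 AT-rich repeat peaks (1.83%), 0 of 438 other repeat peaks and 180 of 22009 peaks with another annotation (0.818%). A region found in several lists counts once in each, as the runs named below do, so the 18 peaks are fewer separate regions. The 2 shares are therefore not shares of regions. In the dnTCF1Emut lists alone the AT-rich counts were 7 of 523, 6 of 347 and 5 of 113 (1.34%, 1.73% and 4.42%), and those of all peaks were 8 of 708, 16 of 1883 and 6 of 354 (1.13%, 0.850% and 1.69%). Those of peaks with another annotation were 1 of 130, 10 of 1447 and 1 of 217 (0.769%, 0.691% and 0.461%). RBFOX1, a neuronal splicing factor gene, held a TA run 6.32 kb from a TSS that scored 379.11 at 0 h, 221.33 at 2 h and 98.07 at 9 h, and a further one that scored 108.37, 68.97 and 57.18. DMD, the dystrophin gene, held a run that scored 261.86, 128.93 and 56.47. MACROD2, a mono-ADP-ribosyl hydrolase gene, held one at 0 h (83.61) and 2 h (70.78), and NAALADL2 one that scored 66.05 and 56.93.

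Repeat peaks held a WRE, the motif of the HMG box, less often than peaks with another annotation in each list, and AT-rich ones held almost no match to any of the motifs. A WRE was found in 3 of 523 AT-rich repeat peaks at dnTCF1Emut 0 h, 3 of 347 (0.865%, 0.294 to 2.51%) at 2 h and 2 of 113 (1.77%, 0.487 to 6.22%) at 9 h. Peaks with another annotation had a WRE in 11 of 130 cases (8.46%) at 0 h, 670 of 1447 (46.3%, 43.7 to 48.9%) at 2 h and 103 of 217 (47.5%, 40.9 to 54.1%) at 9 h. The lists gave no Helper site in any of the 986 AT-rich repeat peaks and a short Helper site in 31. A full Helper site holds at least 5 G or C in 6 bases and a WRE at least 3 in 8, so the limit of 15% GC by itself leaves little room for matches, and the low counts of AT-rich peaks are in part fixed by how the class was chosen. In the other repeat peaks, whose GC content is higher, a WRE was found in 1 of 55 (1.82%, 0.322 to 9.61%) at dnTCF1Emut 0 h. That interval includes the 8.46% of peaks with another annotation. A WRE was found in 4 of 89 (4.49%, 1.76 to 11.0%) at dnTCF1Emut 2 h and 3 of 24 (12.5%, 4.34 to 31.0%) at 9 h. In the dnTCF1EWT lists it was found in 0 of 72, 3 of 74 (4.05%, 1.39 to 11.3%) and 3 of 127 (2.36%, 0.807 to 6.72%) repeat peaks, against 5.89%, 16.5% and 6.60% of peaks with another annotation. The value of 6.60% lies within the 9 h interval, so that difference is not beyond counting error. For the full Helper site, which the C-clamp binds, no such difference was seen beyond counting error in the dnTCF1EWT lists. It was found in 3 of 72 (4.17%, 1.43 to 11.5%) at 0 h, 5 of 71 other repeat peaks (7.04%, 3.05 to 15.4%) at 2 h and 9 of 127 (7.09%, 3.77 to 12.9%) at 9 h, against 3.81%, 7.24% and 4.81% of peaks with another annotation, values that lie within these intervals. Of the other repeat peaks of dnTCF1Emut cells, 0 of 55, 1 of 89 and 0 of 24 held one, against 2.31%, 5.60% and 6.91% of peaks with another annotation. The intervals, 0 to 6.53%, 0.199 to 6.09% and 0 to 13.8%, include these values, so here too no difference was beyond counting error. The short Helper site was less frequent in the other repeat peaks of dnTCF1EWT cells than in peaks with another annotation. Its share was 15.3% (8.75 to 25.3%) against 47.1% at 0 h. It was 21.1% (13.2 to 32.0%) against 54.5% at 2 h and 26.8% (19.8 to 35.1%) against 55.7% at 9 h. CpG dinucleotides, which the GC limit also makes few, were missing from 81.1%, 86.2% and 92.9% of AT-rich repeat peaks at dnTCF1Emut 0, 2 and 9 h, against 41.8%, 29.2% and 33.3% of other repeat peaks and 46.2%, 11.5% and 20.3% of peaks with another annotation.

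The strongest single repeat peak was not AT-rich and had WREs. It lies in a C-rich low-complexity region at chr9:140344686-140346205, in intron 10 of NELF, the gene of nasal embryonic LHRH factor (now NSMF), 8.34 kb from the TSS of the gene. It was the highest peak of all 5585 in the dnTCF1EWT 2 h list with a score of 3217.62, ranked 3 at dnTCF1EWT 9 h (2003.03), 7 at dnTCF1Emut 2 h (837.14) and 14 at dnTCF1Emut 9 h (177.54), and neither 0 h list held a peak there. In each of the 4 lists this peak had 6 matches to the WRE, and a separate small peak beside it at dnTCF1Emut 2 h, with a score of 99.82, had 0. The GC content of the dnTCF1EWT 2 h peak was 61.7%.

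The 2 other regions in 4 lists had a different pattern, as each was also in a list of untreated cells and had no WRE. A CCA repeat at chr11:1212754-1213177, 31.3 kb from the TSS of the mucin gene MUC5B, scored 77.40, 92.70 and 126.81 at dnTCF1Emut 0, 2 and 9 h and 85.76 at dnTCF1EWT 2 h. A TG repeat at chr20:45417466-45418170, 79.5 kb from the TSS of SLC2A10, a glucose transporter gene, scored 133.40 and 75.08 at dnTCF1EWT 0 and 2 h and 107.09 and 68.70 at dnTCF1Emut 2 and 9 h. A T-rich region at chr7:133662217-133662752, in intron 14 of EXOC4, an exocyst gene, had a WRE in the dnTCF1Emut 2 h peak (332.68) and 9 h peak (187.75), scored 129.14 at dnTCF1EWT 9 h, and was covered at dnTCF1EWT 2 h by a peak (216.93) whose center had another annotation.

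Other leading repeat peaks of dnTCF1EWT were in 1 cell line only. At 9 h a C-rich region in intron 9 of TAF4B, a TFIID subunit gene, scored 700.43 and ranked 17, and a TCTA repeat 2.07 kb from VIPR2, a neuropeptide receptor gene, scored 537.76. At 0 h a CAGAGA repeat in intron 12 of MORN1 scored 164.81 and ranked 4 of 1907. A GCTG repeat near TP53TG3 scored 131.95 at 0 h and 351.79 at 9 h, had peaks of 4092 and 4135 bp, and had no 2 h peak. A CCG repeat in intron 2 of the pseudogene FAM35B and that in intron 2 of FAM35B2 had peaks of the same length, 863 bp, at 2 h, with scores of 320.92 and 325.60, and each held 12 Helper sites. As these are copies of one gene, reads of one could be placed at the other, and the values are uncertain.

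Among the other repeat peaks of dnTCF1Emut cells, the highest at 0 h were a TAA repeat in intron 5 of APLF, a DNA repair gene, which scored 137.45, and TA runs 294 kb from FGF20, a fibroblast growth factor gene, and 1203 kb from BAI3, an adhesion receptor gene, which scored 126.55 and 121.59. At 2 h an ATAAG repeat 8.30 kb from MYH4, a myosin heavy chain gene of skeletal muscle, scored 267.49. None of these 4 regions had a dnTCF1EWT peak.

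Of the remaining ones, 1 group was mostly found at 2 h. The unit AAATG, named above, was found at 14 peaks of the dnTCF1Emut 2 h list, and the similar unit AGATG at 6. These 20 peaks compare with 0 of the 0 h list, 1 of the 9 h list, 1 of the dnTCF1EWT 2 h list and 5 of the dnTCF1EWT 9 h list. The 20 were far longer than the remaining repeat peaks, with a median of 2451 bp and a range of 612 to 4841 bp, and 19 of the 20 were over 1 kb, of 48 peaks of that length in the whole 2 h list. Their scores ran from 50.51 to 155.88, their GC content from 27.5 to 31.7%, and none held a WRE. They lay on 6 chromosomes, and their nearest genes were mostly members of copied families, such as FOXD4L4 and FOXD4L5, INTS4L2, AQP7P1 and AQP7P3, and LINC00152. Reads from near-identical copies could be shared among such regions, so the number of separate regions is uncertain. The highest, of 3072 bp at chr2:87590882-87593953, scored 155.88.

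AT-rich DNA was found mostly, but not only, in repeats that meet the rule. Of all peaks with a GC content below 15%, 523 of 587 (89.1%) were repeat peaks at dnTCF1Emut 0 h, 347 of 393 (88.3%) at 2 h and 113 of 124 (91.1%) at 9 h. Of the 64, 46 and 11 AT-rich peaks with another annotation, 36, 21 and 4 were centered in L1M4b, a name of old LINE-1 elements. In all, AT-rich peaks were 82.9% of the dnTCF1Emut 0 h list, 20.9% at 2 h and 35.0% at 9 h, and 0, 4 and 0 peaks of the dnTCF1EWT lists. When peaks that overlapped a dnTCF1Emut 0 h peak were left out, 87 AT-rich repeat peaks remained among 1557 dnTCF1Emut peaks at 2 h (5.59%) and 20 among 238 at 9 h (8.40%).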

How the data were processed

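The 6 lists and their HOMER annotations were used as deposited. Per the labels, reads were processed with CASAVA 1.8.2, Bowtie2 2.0.0, MACS 1.3 and HOMER 3.16 on hg19, and the authors pooled the duplicates of each condition. The deposited peak score is the score of MACS, which grows as the P-value of the peak shrinks and is not scaled for depth. The deposited GC content is a fraction, given here in percent. How reads that match several places were treated is not given in the sources used here. Input libraries were not used here.

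With 1 list per condition no test between conditions could be made, and no p-value is given. Shares, medians and quartiles were computed per list and class. Wilson and Newcombe 95% intervals cover counting error only, and limits for a count of 0 use 3 counts. Overlap was by any base. Host genes were matched through RefSeq transcript accessions (GRCh38.p14 table, names only). Named regions are those of the 3 highest-scoring peaks of each class and list and those in 4 or more lists, and further ones, such as those within 2 kb of a TSS, in the gene lists or of the units AAATG and AGATG, were chosen after their values were seen. One of the named regions is not reported here. The members and lists were chosen with earlier results of these data known. Alternatives were Simple_repeat only, the top 1000 peaks, scores above 67, GC limits of 10% and 20%, overlap of 50% of both peaks, and leaving out chromosome Y or peaks that overlap a peak of either 0 h list. Overlaps and intervals were tested on simulated data. Tables were made in Python 3.11.15 with pandas 2.3.3 and NumPy 2.4.6, intervals with SciPy 1.17.1 and statsmodels 0.14.6, and figures with matplotlib 3.10.9.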

Additional observations from a re-analysis of the deposited data

Results flagged for a closer look

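The number of repeat peaks was lower after doxycycline in dnTCF1Emut cells and was not lower in dnTCF1EWT cells, with 1 list per condition. From 0 to 2 h of doxycycline it went from 72 to 74 (2 more) in dnTCF1EWT cells and from 578 to 436 (a change of -142) in dnTCF1Emut cells, and the 2 more are within counting error. From 0 to 9 h it went from 72 to 127 (55 more) and from 578 to 137 (a change of -441). The share of the list fell in both cell lines, from 3.78% to 1.32% and 0.977% for dnTCF1EWT and from 81.6% to 23.2% and 38.7% for dnTCF1Emut. The number of all peaks went from 1907 to 5585 and 12996 for dnTCF1EWT and from 708 to 1883 and 354 for dnTCF1Emut. The difference was not tested, since each condition is 1 pooled list, and the part of sequencing depth in it was not tested.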

How the results depend on the processing

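Of 155 values recomputed for 48 results, 104 stayed within the 95% interval of the reported value and 51 did not, and none without chromosome Y moved. The cause was not tested, except that a score limit raises a median score by construction. With a score above 67, the repeat share of the list was 10.1% at dnTCF1EWT 0 h, 1.81% at 9 h and 84.8% at dnTCF1Emut 0 h. At that limit the AT-rich share of repeat peaks was 0% at dnTCF1EWT 2 h, 94.3% at dnTCF1Emut 0 h and 83.8% at 2 h. The share with a WRE was 12% at dnTCF1EWT 2 h, where only 25 repeat peaks remained. Median scores of other repeat peaks became 83.5, 78.5 and 84.4 for dnTCF1EWT at 0, 2 and 9 h and 81.0, 82.9 and 83.0 for dnTCF1Emut, those of AT-rich repeat peaks 104, 96.9 and 88.1. Median lengths became 276, 235 and 285 bp for dnTCF1EWT, 459, 434 and 418 bp for AT-rich and 539 bp for other repeat peaks at dnTCF1Emut 2 h. In the top 1000 peaks the repeat share was 5.30%, 0.5% and 2.40% for dnTCF1EWT and 20.5% at dnTCF1Emut 2 h. Of the repeat peaks among them, 0% of 5 were AT-rich at dnTCF1EWT 2 h and 86.3% of 205 at dnTCF1Emut 2 h. A WRE was in 20% of 5 and 8.33% of 24 at dnTCF1EWT 2 and 9 h, so these shares rest on few peaks. Lists of fewer than 1000 peaks have no such value. With simple repeats only, the share was 2.67% and 0.762% at dnTCF1EWT 0 and 9 h. Without peaks that overlap a peak of the 0 h list of either cell line, the repeat share was 10.3% and 16.7% at dnTCF1Emut 2 and 9 h, the AT-rich share 54.0% and 51.3%, and the AT-rich median score 65.2 and 60.4. With a GC limit of 10% the AT-rich share was 77.2%, 70.4% and 71.5% at dnTCF1Emut 0, 2 and 9 h, and with 20% it was 94.3% and 84.2% at 0 and 2 h. With an overlap of 50% of both peaks, AT-rich recurrence was 41.3% from 0 to 2 h, 13.002% from 0 to 9 h, 61.7% from 2 to 0 h, 61.9% from 9 to 0 h and 65.5% from 9 to 2 h. With scores above 67 in both lists it was 14.1% from 0 to 9 h, and 9.09% for other repeat peaks from 2 to 0 h. No paired analysis was possible because each condition is 1 pooled list. Without replicates or known depth, these values cannot show whether lists of a repeat experiment would differ as much.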
